A study of Schizosaccharomyces pombe with 39 samples.

Results

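The comparison is of fission yeast 48 h and 24 h after Epe1 was allowed to return. It takes 6 of the 39 libraries of polyadenylated RNA in the series, 3 from 48 h of recovery and 3 from 24 h of recovery, and covers every gene that could be tested. Both groups are of one Schizosaccharomyces pombe strain in EMMC medium in log phase. The strain carries nmt81-epe1-3xFLAG-AID, which places epe1 under nmt81, a promoter that thiamine turns off, and gives its product a FLAG tag and an auxin-inducible degron. At ade6 it carries the F-box receptors OsTIR1 and AtTIR1-2NLS, each behind an adh15 promoter and fused to skp1. It also carries a deletion of mst2, a histone acetyltransferase gene, and every library of the series is from an mst2 deletion. The counts of mst2, 70.7 to 76.8 CPM (counts scaled to library size) over the 6 libraries, cannot check this, because sec3 covers 98.5% of the gene. The cells of both groups first spent 120 h in thiamine (15 mM in the labels) and 1-naphthaleneacetic acid (500 mM in the labels), and then 48 h or 24 h without them. The other groups of the same experiment used here are untreated cells, cells at 120 h of depletion, and cells depleted again for 24 h after 24 h of recovery, with 3 libraries each. The second depletion thus branched off at 24 h of recovery and did not follow 48 h of recovery. The groups differ in hours since thiamine and the auxin analogue were withdrawn as well as in hours with Epe1, and no strain without the degron under this schedule was analysed here, so these cannot be told apart. The labels do not say whether libraries of a group came from separate cultures, so p-values measure the spread between these libraries, which may be technical.

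Epe1 is a JmjC-domain protein that limits the spread of heterochromatin. Clr4 is the only histone H3 lysine 9 methyltransferase of fission yeast, and the mark it writes is bound by Swi6 and Chp2. Cells that lack both Mst2 and Epe1 are known to spread heterochromatin over ectopic sites, among them clr4 itself, which lowers the supply of the methyltransferase. Levels of clr4 over the recovery are therefore of direct interest, next to those of the genes that respond to thiamine.

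The 3 libraries of 48 h of recovery held 19227290, 18824930 and 16683186 counts, and the 3 of 24 h of recovery held 18830385, 17134532 and 18912528. Levels below are CPM, a library's counts rescaled to a common total, with trimmed-mean (TMM) library factors. They are not divided by gene length, so they compare libraries and not genes. Replicate 3 of 48 h of recovery stood apart. Its median distance to the other 2 libraries of its group was 0.271 on the log2 scale, against 0.142 and 0.147 for those. Its deviations from the mean also followed gene GC content, with a Spearman rank correlation of 0.634 across 6380 genes, against -0.433 and -0.408 in replicates 1 and 2 of its group and -0.373, 0.239 and -0.409 in the 24 h libraries. Results are given with and without that library where they rest on it. Replicate 2 of the second depletion deviated more, with a distance of 0.405, a GC correlation of 0.674 and a TMM factor of 0.629. It is in neither compared group but enters the shared estimate of the spread. Leaving it out raised the number of genes called at 48 h against 24 h from 338 to 655.

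**Figure D1:**
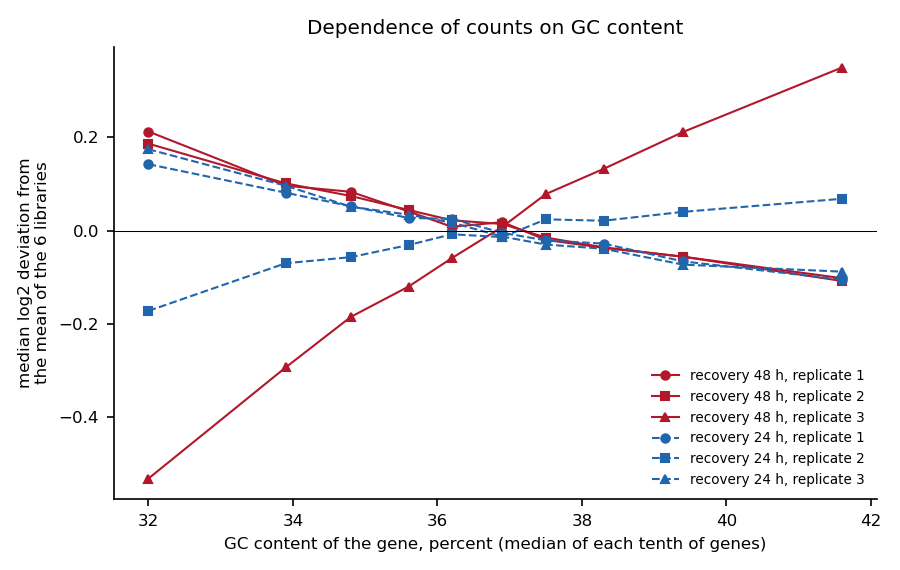
Median log2 deviation of each of the 6 recovery libraries from their mean (vertical axis) for genes in 10 bins of equal size by GC content in percent (horizontal axis), 48 h of recovery in solid red and 24 h in dashed blue. In replicate 3 of 48 h the median deviation is -0.53 in the bin lowest in GC and 0.35 in the bin highest in GC, while replicates 1 and 2 of 48 h slope the other way.

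At 48 h against 24 h of recovery, 338 of 6485 genes changed (5.21% of those tested), at an adjusted p under 0.05 in edgeR's quasi-likelihood test with Benjamini-Hochberg adjustment. Of these, 226 genes (3.48%) were higher and 112 (1.73%) were lower at 48 h. At least 2-fold differences were called for 70 genes that rose (1.08%) and 22 that fell (0.339%). The median log2 fold change was 0.71 among the genes called higher and -0.63 among those called lower, against 0.00 over all genes tested. The 3 libraries of 48 h lay wholly above the 3 of 24 h for 932 genes (14.4%) and wholly below them for 687 (10.6%). Of the called genes, 226 and 111 were so separated.

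The split between directions depended on the processing. With offsets that remove the GC trend of each library 614 genes were called, 325 higher and 289 lower, and with DESeq2 548 genes were called, 311 higher and 237 lower. Higher genes were 66.9% of the calls as reported, 52.9% with GC offsets and 56.8% with DESeq2. Without replicate 3 of 48 h there were 257 calls, 162 higher and 95 lower, and 231 of the 338 genes were among them, all in the same direction. The median GC content of genes called higher was 37.9%, that of genes called lower 36.7% and that of all genes tested 36.5%, and the part of GC content in the calls was not tested.

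**Figure D2:**
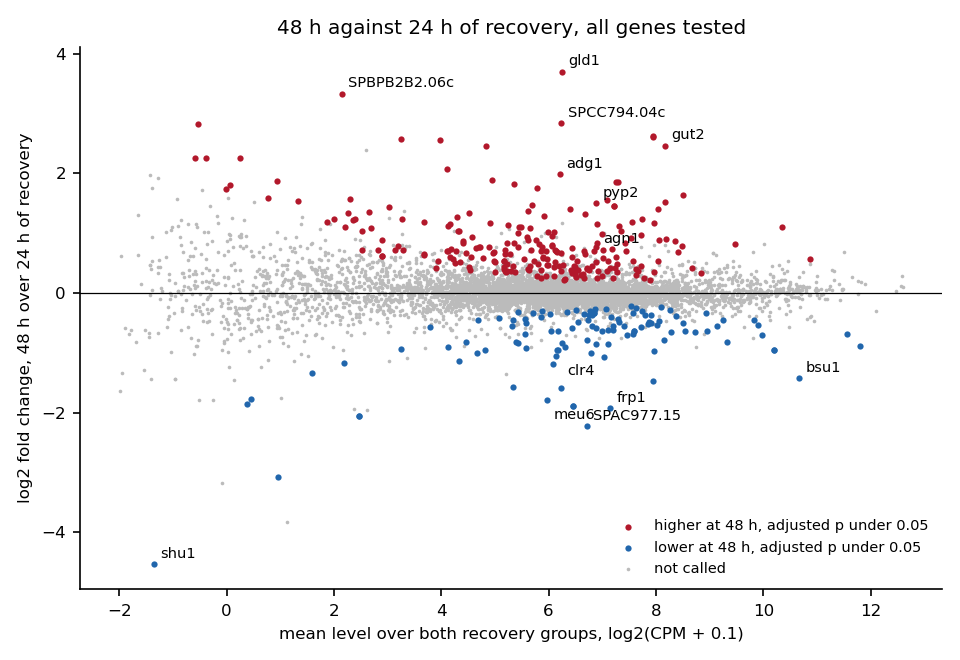
Log2 fold change of 48 h over 24 h of recovery (vertical axis) against the mean level in both groups, as log2(CPM + 0.1), with 1 point per gene tested. The 226 genes called higher are red, the 112 called lower are blue, and genes that did not pass are grey.

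The return of epe1 was looked at first. On the minus strand of chromosome III, at 1431048 to 1435036, epe1 (SPCC622.16c) is overlapped over 48.5% of its length by prl67. Gene coordinates here are those of the files, build ASM294v2. The counts of prl67 were therefore subtracted from those of epe1, which assumes that every read of prl67 also counts for epe1. The differences are given as counts of epe1 outside prl67. They were 90.3, 83.1 and 128.1 CPM at 48 h of recovery and 158.1, 137.9 and 113.7 CPM at 24 h (100.5 ± 24.2 and 136.6 ± 22.2, SD, n = 3 each). The groups overlapped, since replicate 3 of 48 h lay above replicate 3 of 24 h, and an exact two-sided permutation test gave p = 0.2, where 0.1 is the smallest that 3 against 3 allows. With plain library totals in place of TMM factors the groups did not overlap, at 97.2, 89.2 and 112.5 CPM at 48 h and 164.1, 133.4 and 117.5 CPM at 24 h (exact permutation p = 0.1). The TMM factor of replicate 3 of 48 h was 0.878. Both recovery groups were above the 120 h depletion libraries, which averaged 24.4 ± 2.46 CPM. The untreated libraries averaged 105.1 ± 6.15 CPM (98.35, 106.5 and 110.4). All of them lay above replicates 1 and 2 of 48 h and below replicate 3, the library that stood apart. Over the whole gene, the log2 fold change of epe1 was -0.46 (SE 0.14, adjusted p 0.0822 in edgeR). It was called lower by DESeq2 (-0.47, adjusted p 0.018), and by edgeR with GC offsets (adjusted p 0.0327) or without replicate 2 of the second depletion (0.0351). Without replicate 3 of 48 h the adjusted p was 0.209, and with plain library totals 0.307. Against untreated cells, the log2 fold change of the whole gene in edgeR was -0.564 at 48 h (adjusted p 0.04902) and -0.106 at 24 h (adjusted p 0.7942).

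Mean counts over clr4 were highest at 24 h among the 5 stages measured and lower again at 48 h. On the minus strand of chromosome II, at 453996 to 458487, clr4 (SPBC428.08c) had 35.3, 39.1 and 38.6 CPM at 48 h of recovery, against 136.2, 110.2 and 92.4 CPM at 24 h. The groups did not overlap, and the log2 fold change was -1.58 (SE 0.16, adjusted p 8.70e-05), or -1.60 without replicate 3 of 48 h (adjusted p 4.08e-04). Across the stages, clr4 averaged 32.9 CPM untreated, 6.80 at 120 h of depletion, 112.9 at 24 h of recovery, 37.7 at 48 h of recovery and 15.98 in the second depletion. Against untreated cells, the log2 fold change was 0.19 at 48 h (adjusted p 0.561) and 1.78 at 24 h (adjusted p 3.91e-05), in contrasts that share the untreated libraries.

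Most of these counts fell in the stretch that clr4 shares with meu6 (SPBC428.07, chromosome II, 454108 to 456553, plus strand), a gene known for rising in meiosis, which lies wholly inside clr4 on the other strand. meu6 had 25.7, 30.0 and 28.5 CPM at 48 h, against 116.7, 95.8 and 78.8 CPM at 24 h, with a log2 fold change of -1.79 (SE 0.16, adjusted p 3.44e-05). Reads over the overlap count for both genes and their strand is not known, so the counts of clr4 outside meu6 were compared as well. They were 9.62, 9.10 and 10.2 CPM at 48 h and 19.4, 14.5 and 13.6 CPM at 24 h (9.63 ± 0.536 and 15.9 ± 3.15, SD, n = 3 each). These groups did not overlap either, at 1.65 times the level at 24 h, with an exact two-sided permutation p of 0.1, the smallest the design allows. The stretch outside meu6 averaged 10.8 ± 0.147 CPM in untreated cells and 1.63 ± 0.508 at 120 h of depletion.

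The other 17 genes of the list of epe1 and heterochromatin factors did not pass in edgeR. DESeq2 called 2 of the 18 lower, clr4 and epe1. Their log2 fold changes lay between -0.46 for epe1 and 0.24 for stc1, a link between RNA interference and the Clr4 complex. The level of swi6, which encodes the main HP1 protein, differed by -0.19 (adjusted p 0.751) and that of the Argonaute gene ago1 by 0.22 (adjusted p 0.26). The list's median was -0.04, beside 0.00 over all genes.

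Thiamine withdrawal is known to induce genes that thiamine represses, among them genes of thiamine uptake and synthesis. Of 4 thiamine-repressed genes tested, 3 fell (1.73% of all genes did) and 0 rose (3.48%) at 48 h. The list median was -0.61, and 1 fell with the compared groups only in the fit. The gene bsu1 (SPAC17A2.01, chromosome I, 3549682 to 3552067), which encodes a vitamin B6 importer, had 727, 801 and 1130 CPM at 48 h, against 2568, 2639 and 1934 CPM at 24 h. All 48 h libraries were below all 24 h libraries, and the log2 fold change was -1.43 (SE 0.18, adjusted p 2.51e-04). For bsu1 the averages were 769 CPM untreated, 32.5 at 120 h of depletion, 2381 at 24 h of recovery, 886 at 48 h of recovery and 37.6 in the second depletion.

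The thiamine transporter gene thi9 had 714, 699 and 928.5 CPM at 48 h and 1138, 1317 and 952 CPM at 24 h, and the thiamine-repressed acid phosphatase gene pho4 had 2071, 2122 and 2753 CPM and 4120, 3973 and 3057 CPM. Neither gene's groups overlapped. The log2 fold changes were -0.54 for thi9 (adjusted p 0.0458) and -0.68 for pho4 (adjusted p 0.0375). Both calls were lost when replicate 1 or 2 of either group was left out, with adjusted p between 0.116 and 0.193, and both were kept without replicate 3 of 48 h. The fourth, thi4, which acts in thiamine phosphate synthesis, had 1204, 1234 and 1339 CPM at 48 h and 1191, 1286 and 1231 CPM at 24 h, so its groups overlapped. Outside the list, SPBP8B7.18c, annotated as the phosphomethylpyrimidine kinase Thi201, fell by 0.95 on the log2 scale (adjusted p 6.41e-03). An antisense transcript covers it wholly, and it was singled out after its values were seen.

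The largest fitted rise was that of a gene of glycerol use. The gene gld1 (SPAC13F5.03c, chromosome I, 2174641 to 2177050), which encodes glycerol dehydrogenase and is repressed by glucose, had 119.8, 122.7 and 183 CPM at 48 h, against 14.6, 11.3 and 6.76 CPM at 24 h. The groups lay far apart, with a log2 fold change of 3.70 (SE 0.39, adjusted p 9.19e-05), or 3.48 without replicate 3 of 48 h. Untreated cells averaged 122.5 CPM of gld1, so that it was the 24 h libraries that lay low, at a log2 fold change of -3.49 against untreated (adjusted p 1.75e-04) and of -2.21 against 120 h of depletion (adjusted p 2.88e-03).

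The gene gut2 (SPCC1223.03c, chromosome III, 1840594 to 1843300), for the mitochondrial glycerol-3-phosphate dehydrogenase, showed the same order. It had 483.6, 449.8 and 518.4 CPM at 48 h and 96.0, 92.5 and 74.6 CPM at 24 h, with a log2 fold change of 2.46 (SE 0.20, adjusted p 1.94e-05). An antisense transcript covers gut2 over its whole length, so its counts are uncertain as to strand. On a list of 6 glycerol metabolism genes written after the values were seen, gld1 and gut2 rose and 0 fell in edgeR. Over all genes, 3.48% rose and 1.73% fell. DESeq2 called 1 lower, and edgeR with GC offsets called 3 higher and 1 lower, in fits that called 548 and 614 genes in all. The dihydroxyacetone kinase gene dak2 had a log2 fold change of -0.54 (adjusted p 0.0964), and without replicate 3 of 48 h it was called lower (-0.69, adjusted p 0.0475). The osmotic stress gene gpd1, for the cytosolic glycerol-3-phosphate dehydrogenase, had a log2 fold change of 0.54 (adjusted p 0.38).

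**Figure D3:**
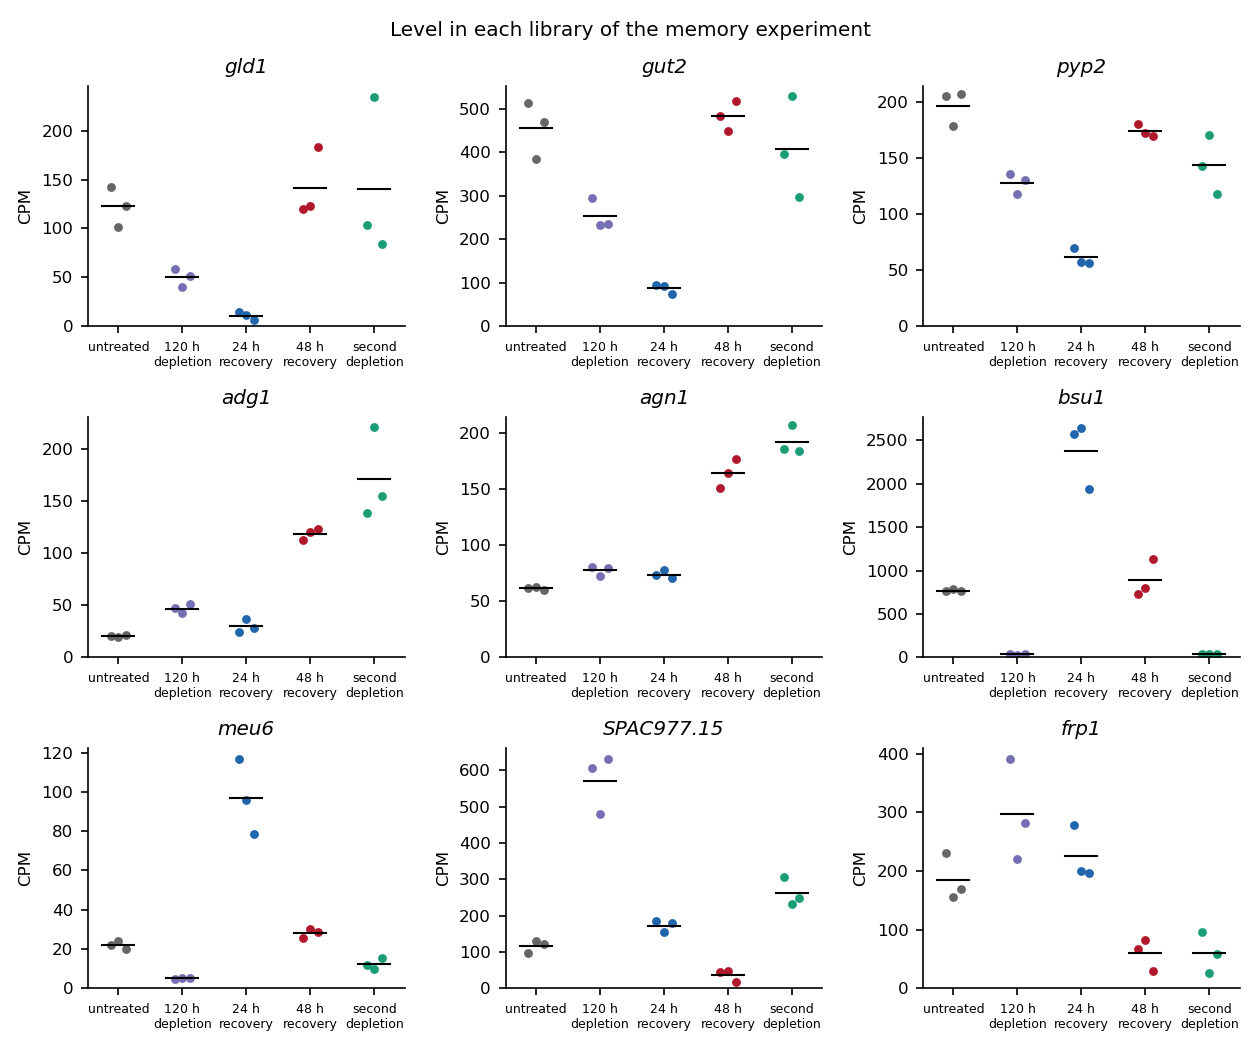
CPM of 9 genes (vertical axes, from 0) in each of the 15 libraries of the memory experiment, by stage, with the second depletion, which branched off at 24 h of recovery, at the right end. Points are libraries and lines are group means. For gld1, gut2 and pyp2 the 24 h recovery libraries are the lowest of all stages, for bsu1 and meu6 they are the highest, and for adg1 and agn1 the 48 h recovery libraries lie above those of untreated cells.

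Several hexose transporter genes were also higher at 48 h. All 8 of the ght genes had a log2 fold change above 0, with a median of 1.00 beside 0.00 over all genes. Of the 8, 4 rose (3.48% of all genes did) while 0 fell (1.73%). Against untreated cells their median log2 fold change was -0.735 at 24 h and 0.278 at 48 h (-0.009 and -0.005 over all genes). The main high-affinity glucose transporter gene ght5 (SPCC1235.14) had 1662, 1641 and 2017 CPM at 48 h, against 793, 1052 and 621 CPM at 24 h. Its groups did not overlap, and its log2 fold change was 1.11 (SE 0.19, adjusted p 3.54e-03). The gene ght4 (SPBC1683.08) had 67.0, 61.3 and 63.05 CPM at 48 h and 34.1, 35.7 and 33.2 CPM at 24 h, with a log2 fold change of 0.89 (SE 0.125, adjusted p 7.15e-04). The calls of ght1 (1.28, adjusted p 0.0127) and ght2 (0.54, adjusted p 0.0177) did not hold in every fit that left out a recovery library. The call of ght1 was lost without replicate 3 of 48 h (adjusted p 0.0535) and without replicate 3 of 24 h (0.0745), and that of ght2 without replicate 1 of 48 h (0.0753), replicate 2 of 24 h (0.0805) and replicate 3 of 24 h (0.0904). Over those 6 fits, between 2 and 5 of the 8 were called. The invertase gene inv1, which glucose represses, had a log2 fold change of 0.83 (adjusted p 0.031), and its call was lost without replicate 3 of 48 h (adjusted p 0.124) or without replicate 1 (0.0881), 2 (0.093) or 3 (0.134) of 24 h. With gld1 it made up the 2 of 6 glucose-repressed genes that were called higher, where 3.48% of all genes were.

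Of 19 genes that fission yeast induces in many stresses, 8 rose at 48 h (3.48% of all genes did) and 0 fell (1.73%), with a median of 0.52. Against untreated cells the list's median log2 fold change was -0.462 at 24 h and 0.008 at 48 h (-0.009 and -0.005 over all genes). Those contrasts share libraries with this one. With GC offsets 11 were called higher and 1 lower at 48 h than at 24 h. That fit called 614 genes in all, against 338. The phosphatase gene pyp2 (SPAC19D5.01, chromosome I, 5202366 to 5205202), whose product switches off the stress kinase Sty1, had 180.9, 172.2 and 169.8 CPM at 48 h, against 70.0, 57.8 and 56.7 CPM at 24 h. The 48 h libraries were all near one level and well above the 24 h libraries, with a log2 fold change of 1.502 (SE 0.12, adjusted p 2.04e-05). The catalase gene ctt1 had 379.6, 386.4 and 514.7 CPM at 48 h and 148.5, 133.3 and 165.7 CPM at 24 h (1.52, SE 0.235, adjusted p 1.75e-03). The gene ish1, for a nuclear envelope protein of stress response, rose by 1.23 (adjusted p 9.19e-05).

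The smaller rises of the list were those of hsp9 (0.83), grx1 (0.72), ntp1 (0.70), plr1 (0.42) and gpx1 (0.36). Without replicate 3 of 48 h, 5 of the 19 were called, and over the 6 fits that each left out a recovery library the number lay between 4 and 7. Beside pyp2, the second phosphatase gene of that kinase, pyp1, rose by 0.78 (adjusted p 5.99e-03) and srk1, for a kinase that Sty1 activates, by 0.84 (adjusted p 7.41e-03). Both were chosen after their values were seen. Of 12 heat shock chaperone genes, edgeR called 1 higher, ssa1 (0.90, adjusted p 0.0472), where it called 3.48% of all genes higher. The call of ssa1 was lost in each of the 6 fits. DESeq2 called 2 of the 12 higher and edgeR with GC offsets 3, in fits that called 548 and 614 genes in all.

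The cAMP pathway, through which glucose activates protein kinase A, was listed after the values were seen. Of its 10 genes, 5 were higher at 48 h (3.48% of all genes were) and 0 lower (1.73%), with a median of 0.34. Against untreated cells the list's median log2 fold change was -0.541 at 24 h and -0.06 at 48 h (-0.009 and -0.005 over all genes). The glucose receptor gene git3 had 147.6, 151.0 and 131.1 CPM at 48 h, against 91.9, 83.1 and 88.9 CPM at 24 h, a log2 fold change of 0.70 (SE 0.07, adjusted p 8.70e-05). The gene cgs1, for the regulatory subunit of the kinase, had 26.2, 24.8 and 30.2 CPM at 48 h and 15.0, 14.9 and 15.6 CPM at 24 h (0.83, adjusted p 4.94e-04). The groups of both genes lay apart. The catalytic subunit gene pka1 (0.60), the G-beta gene git5 (0.83) and the transcription factor gene rst2 (0.28) passed as well. Of the 5, git3 and cgs1 were called in each of the 6 fits, and without replicate 3 of 48 h they were the only ones.

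In fission yeast, genes whose products dissolve the septum and part the daughter cells are transcribed late in each cycle. A list of 7 such genes was written after the values were seen, so its count describes genes picked with these values known. Of these, 6 rose at 48 h (3.48% of all genes did), 0 fell (1.73%) and 1 did not pass, with a median log2 fold change of 1.15. All 6 rises were called in each of the 6 fits that left out a recovery library.

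The gene adg1 (SPAPJ760.03c), for a cell surface protein, had 112.3, 120.6 and 123.3 CPM at 48 h, against 24.6, 36.9 and 28.0 CPM at 24 h. The groups did not overlap, and the log2 fold change was 1.99 (SE 0.17, adjusted p 2.42e-05), or 1.97 without replicate 3 of 48 h. The gene agn1 (SPAC14C4.09), for the alpha-glucanase that breaks down the septum edging, had 151.2, 164.2 and 177.3 CPM at 48 h and 73.4, 77.5 and 70.4 CPM at 24 h. Its log2 fold change was 1.15 (SE 0.075, adjusted p 4.42e-06).

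The other rises were 1.41 for adg2 (SPAC19G12.16c), 1.19 for adg3 (SPCC18.01c), 1.03 for the chitin synthase regulatory gene cfh4 (SPBC3E7.12c) and 0.87 for mid2 (SPAPYUG7.03c), which encodes an anillin-like protein that organises the septin ring and lies wholly inside SPNCRNA.1021. The endo-glucanase gene eng1, which opens the primary septum, had 89.6, 101.4 and 117.3 CPM at 48 h and 77.2, 104.2 and 74.0 CPM at 24 h, with overlapping groups (0.27, adjusted p 0.579).

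The listed cell separation genes were also higher at 48 h than in untreated cells. The gene adg1 averaged 20.6 CPM untreated, 46.7 at 120 h of depletion, 29.9 at 24 h of recovery, 118.7 at 48 h of recovery and 171.3 in the second depletion. Against untreated cells, all 7 were called higher at 48 h (1.42% of all genes were), with a median log2 fold change of 1.41, and 1, eng1, was called higher at 24 h (0.925% of all genes were), with a median of 0.26.

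The genes of the MBF factor, which are transcribed at the start of S phase, were a further list written after the values were seen. Of 11 tested, 7 were higher at 48 h (3.48% of all genes were) and 0 lower (1.73%), with a median of 0.44. With the compared groups only in the fit, 2 were called. Against untreated cells, 7 of the 11 were called higher at 48 h (1.42% of all genes were), with a median log2 fold change of 0.825. At 24 h, 3 were called higher against untreated cells (0.925% of all genes were), with a median of 0.205. Those contrasts share libraries with this one. The replication licensing gene cdt1 had a log2 fold change of -0.14 (adjusted p 0.804). The forkhead-associated regulator gene tos4 had 145.2, 147.3 and 165.7 CPM at 48 h, against 81.4, 93.8 and 81.2 CPM at 24 h, with a log2 fold change of 0.84 (SE 0.09, adjusted p 9.19e-05). The kinase gene mik1 had 20.4, 22.3 and 22.0 CPM at 48 h and 13.7, 14.6 and 11.2 CPM at 24 h (0.71, adjusted p 5.12e-03). In both genes the groups lay apart. The ribonucleotide reductase gene cdc22 had a log2 fold change of 0.90 (adjusted p 0.0385), and its call was lost without replicate 3 of 48 h (adjusted p 0.149) or without replicate 1 (0.143), 2 (0.054) or 3 (0.175) of 24 h. The calls of dut1 (0.545) and ctp1 (0.37) were lost in each of the 6 fits that left out a recovery library. Over those fits, between 2 and 4 of the 11 were called. The 300 bases upstream of their annotated starts in RefSeq (build ASM294v3, matched by gene identifier) were searched for the MluI cell-cycle box ACGCGT, which reads the same on both strands. It occurred in 5 of the 11 windows, against 146 of 4990 upstream windows of protein-coding genes (2.93%). MBF targets are known by this box, so its share in the list is a description of the list. The 5 were the called cdt2, cdc22 and tos4 and the uncalled cdt1 and yox1. The windows of cdt2, a rise of 0.57 that was lost without replicate 3 of 48 h (adjusted p 0.0526), replicate 1 of 24 h (0.0603) or replicate 3 of 24 h (0.106), and of cdc22 are shown as those with the most matches among called genes. They run 5′ to 3′ along the gene's strand and end just before the gene, with each of 3 matches in cdt2 and 2 in cdc22 in capitals.

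cdt2 (chrI:2035705-2036004, minus strand): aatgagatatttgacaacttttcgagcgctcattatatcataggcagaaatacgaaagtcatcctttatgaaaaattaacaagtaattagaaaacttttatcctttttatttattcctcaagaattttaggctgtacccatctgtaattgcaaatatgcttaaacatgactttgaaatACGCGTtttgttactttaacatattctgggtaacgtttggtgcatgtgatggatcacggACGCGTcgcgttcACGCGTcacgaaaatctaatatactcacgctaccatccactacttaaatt

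cdc22 (chrI:4226670-4226969, plus strand): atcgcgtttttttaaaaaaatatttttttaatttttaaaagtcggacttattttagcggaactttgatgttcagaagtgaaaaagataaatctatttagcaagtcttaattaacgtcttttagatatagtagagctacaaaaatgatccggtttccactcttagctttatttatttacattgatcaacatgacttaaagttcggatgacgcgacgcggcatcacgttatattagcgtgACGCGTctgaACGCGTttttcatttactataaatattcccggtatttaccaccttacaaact

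A list of 9 lipid enzymes, the glycerolipid list, was written after the values were seen. Its count thus describes genes picked with these values known. Of these, 7 fell at 48 h (1.73% of all genes did) and 0 rose (3.48%). The median was -0.49, and between 5 and 7 fell in the 6 fits that left out a recovery library. With plain library totals 4 were called. Outside the list, the phosphatidylserine decarboxylase gene psd2 rose by 0.415 on the log2 scale, a call kept in each of those 6 fits. The triacylglycerol lipase gene ptl1 had 231.0, 224.5 and 270.4 CPM at 48 h, against 356.0, 402.1 and 386.5 CPM at 24 h, and fell by 0.66 on the log2 scale (SE 0.10, adjusted p 1.71e-03). The gene slc1, for an acyltransferase that makes phosphatidic acid, had 145.5, 151.0 and 155.5 CPM at 48 h and 202.9, 263.1 and 234.5 CPM at 24 h (-0.63, adjusted p 5.54e-04). The largest fall of the list was -0.998, in SPBC16A3.10 (adjusted p 2.10e-04), annotated as an MBOAT family O-acyltransferase. Groups did not overlap for these 3 genes.

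Of 9 iron and haem uptake genes, which the repressor Fep1 controls, 1 rose (3.48% of all genes did) and 2 fell (1.73%) in edgeR. The list's median was -0.57, with 1 log2 fold change above 0. DESeq2 called 4 lower, as did edgeR without replicate 2 of the second depletion, and edgeR with GC offsets called 5 lower. Those fits, in that order, called 548, 655 and 614 genes in all, against 338. The ferric reductase gene frp1 (SPBC1683.09c, chromosome II, 160357 to 162497) had 67.0, 82.0 and 29.0 CPM at 48 h, against 277.5, 200.1 and 197.1 CPM at 24 h. Its libraries did not overlap, but replicate 3 of 48 h was far below the other 2. The log2 fold change of frp1 was -1.92 (SE 0.42, adjusted p 0.0161), and the call was lost without replicate 1 of 48 h (adjusted p 0.0532), replicate 3 of 48 h (0.0501) or replicate 1 of 24 h (0.0648). The haem transporter gene shu1 (SPAC1F8.02c) had 1, 0 and 0 counts at 48 h and 12, 12 and 7 counts at 24 h. The ratio of the sums, 24 h over 48 h, was 30.9, with a 95% exact interval of 5.16 to 1261 that covers counting error only. The siderophore synthesis gene sib2 rose by 0.75 (adjusted p 0.0487), and its call was lost in each of the 6 fits that left out a recovery library. The neighbouring sib1 had a log2 fold change of -0.10 (adjusted p 0.896), and the iron permease gene fip1 one of -0.76 (adjusted p 0.109).

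**Figure D4:**
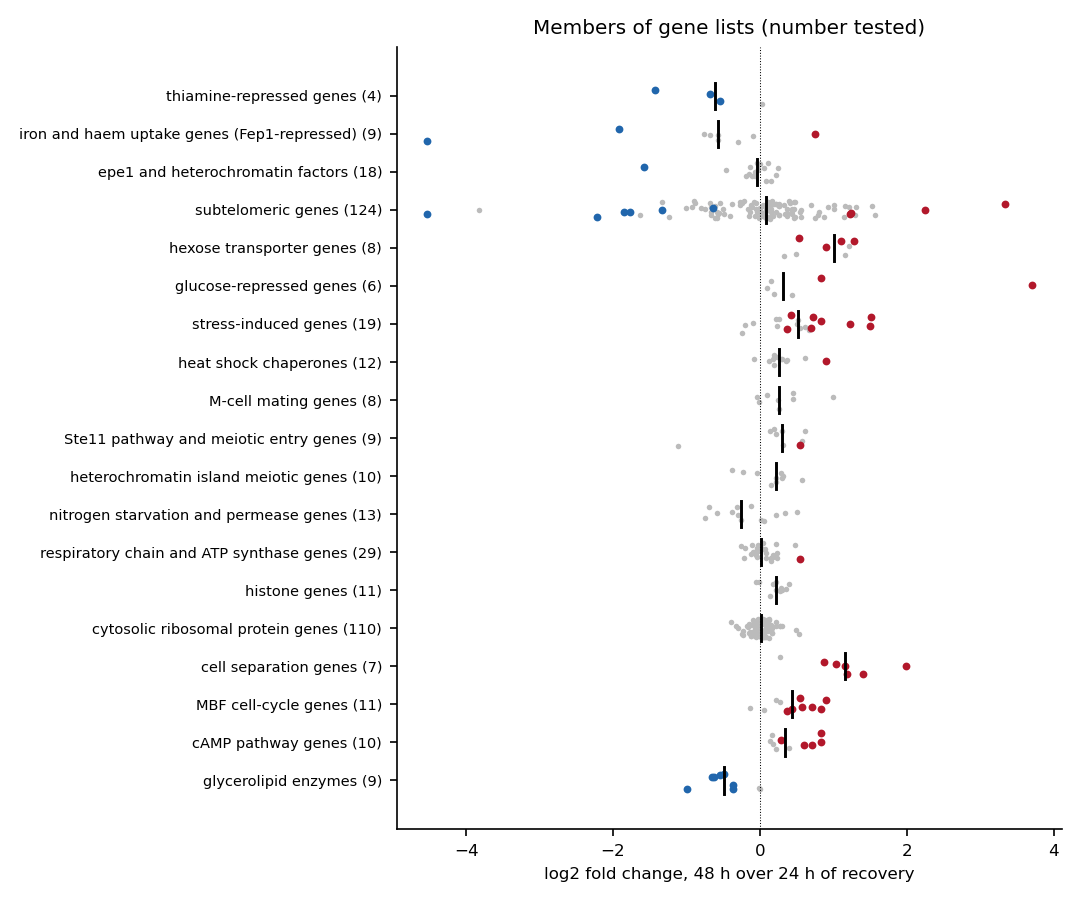
Log2 fold change of 48 h over 24 h of recovery (horizontal axis) for the members of 19 gene lists, with the number tested in brackets. Points called higher are red, those called lower blue and the rest grey, and black bars are medians. The cell separation list has 6 red points, the stress list 8 red points, and the glycerolipid list 7 blue points.

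In the outermost 100 kb of chromosomes I and II, where heterochromatin silences genes, 4 of 124 genes tested rose and 6 fell, where 3.48% and 1.73% of all genes did. DESeq2 called 11 higher and 14 lower there, edgeR with GC offsets 6 and 11, and edgeR without replicate 2 of the second depletion 8 and 11. Those fits also called more genes in all, 548, 614 and 655 against 338, so the shares above are not their background. The list's median was 0.08, beside 0.00 over all genes. All 4 that rose carry SPBPB2B2 identifiers and lie in one stretch of the right arm of chromosome II. The gene SPBPB2B2.06c (chromosome II, 4469018 to 4471207), annotated as a phosphoprotein phosphatase, had 5.41, 5.835 and 12.35 CPM at 48 h, against 1.075, 0.664 and 0.563 CPM at 24 h. Its groups were apart, with a log2 fold change of 3.33 (SE 0.43, adjusted p 4.29e-04), or 2.86 without replicate 3 of 48 h. Its averages were 2.75 CPM untreated and 0.176 CPM at 120 h of depletion. Nearby, SPBPB2B2.05 rose by 2.25, SPBPB2B2.11 by 1.24 and the galactose metabolism gene gal10 by 1.23. SPBPB2B2.11 and gal10 overlap in position. The call of SPBPB2B2.05 was lost without replicate 1 of 24 h (adjusted p 0.0503). In the same cluster gal7 had a log2 fold change of 0.09 (adjusted p 0.88) and gal1 one of 0.43 (adjusted p 0.337).

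At the left end of chromosome I, SPAC977.15 (62961 to 63862), annotated as a dienelactone hydrolase family protein, fell most among all genes named by the rule. It had 45.4, 46.6 and 18.15 CPM at 48 h, against 185.6, 153.8 and 178.5 CPM at 24 h, with a log2 fold change of -2.23 (SE 0.27, adjusted p 2.51e-04) and -1.91 without replicate 3 of 48 h. Across the stages, SPAC977.15 averaged 116.7 CPM untreated, 571.9 at 120 h of depletion, 172.6 at 24 h of recovery, 36.7 at 48 h of recovery and 261.9 in the second depletion. At 48 h it was also below untreated cells, by a log2 fold change of -1.66 (adjusted p 5.75e-03). The other falls near chromosome ends were those of shu1, SPBPB21E7.04c (-1.33), SPAC922.04 (-0.64), SPBPB10D8.02c (-1.77) and its antisense transcript (-1.86). The last 2 share reads, and the call of SPBPB10D8.02c (adjusted p 0.04996) was kept in only 1 of the 6 fits that left out a recovery library. The call of SPAC922.04 was lost without replicate 3 of 48 h (adjusted p 0.0608), replicate 1 of 24 h (0.0747) or replicate 3 of 24 h (0.057).

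Several of the remaining large rises were in transporters and genes of unknown role. SPCC794.04c (chromosome III, 248211 to 252103), annotated as a transporter, had 145.1, 131.5 and 120.6 CPM at 48 h, against 25.5, 12.3 and 17.4 CPM at 24 h (2.84, SE 0.27, adjusted p 4.69e-05). The amino acid permease gene SPCPB1C11.02 (chromosome III, 2072626 to 2074890) had 29.1, 24.5 and 26.8 CPM at 48 h and 5.78, 4.34 and 3.53 CPM at 24 h (2.55, SE 0.22, adjusted p 2.52e-05). The groups of both were far apart. SPAC23H3.15c, annotated as protein Ddr48, rose by 2.61 and its antisense transcript by 2.63, but the antisense transcript covers 95.5% of the gene, so 1 signal may be counted for both. SPBC19C7.04c, of unknown role, rose by 2.07 and SPBP4H10.10, annotated as the mitochondrial rhomboid peptidase Rbd3, by 1.89. SPBP4H10.10 lies wholly inside the non-coding gene SPNCRNA.1560, which rose by 1.82. The short genes mug108 (2.46) and SPAC29A4.22 (2.58) lie wholly inside rga3, which rose by 1.75 (adjusted p 1.26e-04), so their counts cannot be told from those of rga3.

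Among the remaining large falls, SPBC23G7.13c (chromosome II, 2123087 to 2125438), annotated as a urea transporter, had 32.4, 35.2 and 45.0 CPM at 48 h, against 141.3, 155.8 and 117.6 CPM at 24 h (-1.88, SE 0.21, adjusted p 1.47e-04). Its antisense transcript covers 90.2% of it and fell by 1.88 on the log2 scale. SPAC3G6.05 (chromosome I, 5387884 to 5389677), an Mpv17/PMP22 family gene, had 134.6, 150.3 and 107.8 CPM at 48 h and 380.7, 340.8 and 365.3 CPM at 24 h (-1.47, SE 0.14, adjusted p 4.34e-05). In both genes all 48 h libraries lay below all 24 h libraries. The gene izh2, of the haemolysin-III family, had a log2 fold change of -1.19 (adjusted p 0.0306), and that call was lost in each of the 6 fits that left out a recovery library.

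**Figure D5:**
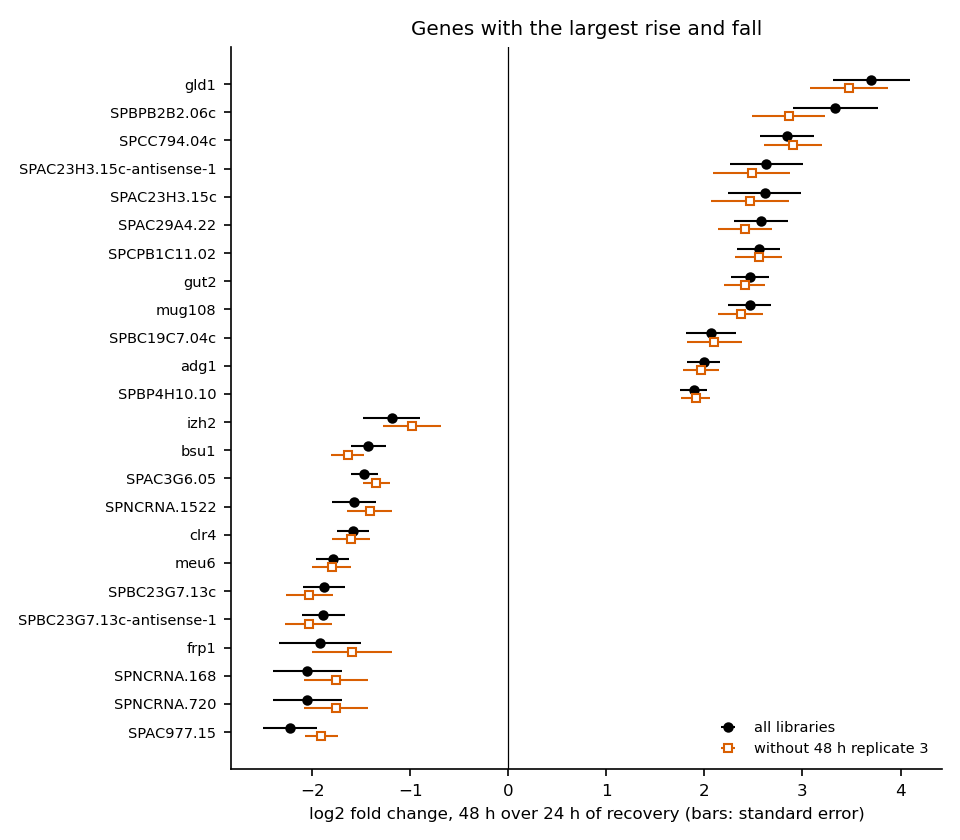
Log2 fold change of 48 h over 24 h of recovery (horizontal axis), with its standard error, for the 12 genes with the largest rise and the 12 with the largest fall among called genes with at least 5 CPM and separate groups. Black circles are from all libraries and open orange squares from the fit without replicate 3 of 48 h. All 24 keep their direction, and izh2 and frp1 lose their call.

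Non-coding transcripts shared in the change at a rate near that of all genes. Of 1395 genes with SPNCRNA identifiers, 45 rose (3.23%) and 26 fell (1.86%), against 3.64% and 1.71% of 4973 protein-coding genes. The pair SPNCRNA.720 and SPNCRNA.168 on chromosome I had identical CPM in the recovery libraries, averaging 2.09 at 48 h and 8.79 at 24 h, and their groups did not overlap. SPNCRNA.720 lies wholly inside SPNCRNA.168 on the other strand, so this is 1 signal. SPNCRNA.1522 (chromosome II, 2499101 to 2499784) had 24.3, 21.2 and 15.2 CPM at 48 h, against 59.3, 60.3 and 62.0 CPM at 24 h (-1.57, SE 0.22, adjusted p 8.02e-04). Its libraries lay apart.

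Several other lists held few or no calls. Of all genes tested, edgeR called 3.48% higher and 1.73% lower, and 1044 (16.1%) had an unadjusted p under 0.05. Of 110 cytosolic ribosomal protein genes 0 were called by edgeR or by DESeq2, and 1 had an unadjusted p under 0.05. Among 29 respiratory chain genes edgeR called 1, sdh2 (0.54), while DESeq2 called 1 higher and 1 lower. The edgeR call of sdh2 was lost without replicate 2 or 3 of 48 h or replicate 1 or 2 of 24 h. Of 10 meiotic genes of heterochromatin islands 0 were called by either tool, with 2 at an unadjusted p under 0.05. Of 8 M-cell genes 0 were called by either tool (3 at an unadjusted p under 0.05), and of 5 P-cell genes 0 by edgeR (1 at an unadjusted p under 0.05, 1 by DESeq2). The M-cell factor transporter gene mam3, chosen after its values were seen, had 54.8, 51.3 and 138.4 CPM at 48 h and 41.6, 41.6 and 38.8 CPM at 24 h, so that 1 library set its mean (0.998 on the log2 scale, 0.38 without replicate 3 of 48 h). By edgeR, 0 of 54 mitochondrial ribosomal protein genes were called (4 at an unadjusted p under 0.05, 2 by DESeq2), 0 of 73 ribosome biogenesis factors (4, and 3 by DESeq2), 0 of 13 nitrogen starvation and permease genes (4, and 3) and 0 of 3 phosphate-regulated genes (1, and 1). Of 11 histone genes, 8 flocculin-like genes, 7 Tf2 retrotransposon copies and 5 glycolytic enzymes, 0 were called by either tool, with 1 gene of each list at an unadjusted p under 0.05. Some other edgeR fits called members of these lists. With plain library totals 4 histone genes were higher, and without replicate 2 of the second depletion 2 histone genes and 1 glycolytic enzyme were. With GC offsets 1 M-cell gene was higher, and 3 cytosolic ribosomal protein genes and 6 ribosome biogenesis factors were lower. In the list of Ste11 targets and meiotic entry genes, 1 of 9 was called, spk1 (0.54, adjusted p 6.25e-03), for the mating pheromone MAP kinase, which ups1 overlaps over 71.2% of its length.

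Set beside the step before, 24 h of recovery differed from 120 h of depletion in 307 genes (4.73%), 148 higher (2.28%) and 159 lower (2.45%). Against untreated cells, 157 genes differed at 48 h of recovery (2.42%), 92 higher (1.42%) and 65 lower (1%), and 197 at 24 h (3.04%), of which 60 were higher (0.925%). These contrasts share libraries with each other and with the comparison of 48 h and 24 h, so they are given side by side only. The 226 genes called higher at 48 h than at 24 h had median log2 fold changes of -0.35 at 24 h of recovery against 120 h of depletion, 0.22 at 48 h of recovery against untreated cells and -0.42 at 24 h of recovery against untreated cells. For the 112 genes called lower these medians were 0.13, -0.34 and 0.24, and over all genes they were -0.02, -0.01 and -0.01.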

How the data were processed

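Counts per gene were deposited as whole numbers, 1 column per library. Reads were processed with Trimmomatic and STAR against build ASM294v2, per the submitters' processing notes; the counting tool and its use of strand are not given in the sources used here. The memory table held 6544 genes and 15 libraries. Across the deposited tables, 6 count columns did not match any labelled library and were left aside. Column indices within a group were read as replicate numbers, 0 as replicate 1. The rest was computed for this work. Genes passing edgeR's filterByExpr (6485) were fitted in edgeR 4.0.16 (R 4.3.3) on all 15 libraries with TMM factors, group as the only term and robust quasi-likelihood dispersions, and p-values were Benjamini-Hochberg adjusted over all genes tested. The test was checked on simulated counts. It recovered 90 of 100 genes altered 2-fold and 99 of 100 altered 4-fold, with 13 false calls. The 2 most similar libraries of a group, replicates 1 and 2 of 48 h of recovery, still differed beyond sampling noise (chi-squared per degree of freedom 3.8), so none was counted as a duplicate.

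CPM values use TMM factors. Intervals cover counting error only. DESeq2 1.42.0 was an alternative. Symbols, products, GC content and upstream sequences came from RefSeq ASM294v3 by gene identifier (6436 genes matched). No coordinates were carried between builds. Where genes overlap (70% of genes), reads may count for both. The text names the 12 genes with the largest rise and the 12 with the largest fall among those with an adjusted p under 0.05, at least 5 CPM in the higher group and groups that do not overlap, and list members as examples. The comparison, the rule and 23 gene lists were chosen with earlier results of these data known, and 5 more lists (cell separation, MBF, cAMP pathway, glycerolipid enzymes and glycerol metabolism) after the values were seen. A member of the cell separation list is not reported here and is not in its counts.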

Additional observations from a re-analysis of the deposited data

How the results depend on the processing

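The number of genes that differed between 48 h and 24 h of recovery was 338 as reported. It was 614 with GC offsets, 519 with GC offsets and the replicate block, 548 with DESeq2, 655 when replicate 2 of the second depletion, which is in neither group, was left out, and 779 with replicate 3 of 48 h left out as well, a setting chosen after seeing the data. The fewer genes that overlap no other gene (1919) gave 101 calls, 24 of them at least 2-fold. The count ranged from 202 to 257 when 1 recovery library was left out, with 204 without replicate 1 of 48 h, 202 without replicate 2 of 24 h and 203 without replicate 3 of 24 h; 162 of the 338 genes were called in all 6 such fits and 41 in none. At least 2-fold changes ranged from 77 to 89 in these fits. With the compared groups only 230 genes were called, with plain library totals 252. Replicate numbers did not pair the libraries (r of same-numbered deviations 0.385, -0.506 and -0.449), and the replicate block gave 251 calls, 249 of them among the 338. Recovery at 24 h against 120 h of depletion gave 525 genes with the compared groups only, 477 with GC offsets and 201 to 231 with 1 library left out. Recovery at 48 h against untreated gave 304 with GC offsets and 55 to 92 with 1 library left out, and recovery at 24 h against untreated 835 with the compared groups only, 365 with GC offsets and 96 to 151. The difference of epe1 outside prl67 stayed between -49.86 and -25.30 CPM when 1 library was left out. Of 109 single genes, only thi4 and sib1 changed sign. For thi4 (0.03) the log2 fold change ranged from -0.02 (without replicate 3 of 48 h) to 0.058 when 1 library was left out, and was -0.006 with GC offsets, with or without the replicate block, and -0.029 with both named libraries left out. For sib1 (-0.10) it ranged from -0.25 to 0.054 (without replicate 3 of 48 h), with 0.003 without replicate 2 of 24 h, and was 0.046 with both left out. The cause was not tested. Levels of a few counts, as in shu1, are limited by depth.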
